A study of Mus musculus with 8 samples.

Results

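The comparison described here is that of a high fat diet (HFD) with chow in wild-type mouse liver. Its members are 4 libraries of the 8 in the study, chosen by their labels as all wild-type libraries, namely chow libraries 1 and 2 and HFD libraries 5 and 6. The mice were C57 Black mice that were put on HFD or normal chow at 8 weeks of age and stayed on it for 8 weeks. The remaining 4 libraries came from mice labelled heterozygous for MLL4 (a histone methyltransferase), with chow libraries 3 and 4 and HFD libraries 7 and 8. They are called het-labelled here, and were fed on the same schedule. The name MLL4 has been used for the genes listed as Mll2 and Wbp7 in these files. Mll2 stood at 61.2 and 69.6 CPM (chow) and 63.3 and 64.7 CPM (HFD) in wild-type libraries and had 59.95 and 72.1 CPM on chow and 62.8 and 75.4 on HFD in het-labelled ones, which overlap. Wbp7 stood at 31.5 and 32.4 CPM and 29.5 and 30.8 CPM in wild-type libraries and had 34.9 and 37.97 CPM on chow and 37.9 and 39.04 on HFD in het-labelled ones, which were all higher, so that neither gene was lower under the label. Reads outside a deleted part do not check the label. The composition of either diet, the substrain, the sex and the allele of the het-labelled mice are not given in the labels. The Y-linked gene Ddx3y stood at 60.1 to 78.3 CPM over the 8 libraries. Xist, which is expressed in females, stood at 0.054 to 0.492 CPM, so each library had the pattern of male liver. Total liver RNA was sequenced in every group, so that fewer cells of a type and less RNA per cell cannot be told apart. Whether the 2 libraries of each group were made from different animals is not in the labels. The p-values therefore measure the spread between libraries, which may be technical.

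The liver takes up fatty acids and sugars from the diet, burns or stores them, and exports fat as lipoproteins. It also makes most plasma proteins, disposes of nitrogen from amino acids through the urea cycle and turns cholesterol into bile acids. In rodents, diets rich in fat are known to act on several of these tasks through transcription factors that sense fatty acids, sterols, insulin and glucose. Lipogenesis, cholesterol synthesis and xenobiotic metabolism serve below as reference groups, and the account is of the other groups.

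Wild-type libraries held 15509216 (library 1), 17330137 (library 2), 17054887 (library 5) and 18813837 (library 6) counts. Levels are given in CPM (counts per 1e+06 library counts, with libraries scaled by edgeR's TMM factors). A count of 3 was worth between 0.164 and 0.189 CPM. Counts within a diet varied beyond counting error, with a chi-square over its degrees of freedom of 16.6 between the chow and 15.8 between the HFD libraries. Kupffer cell, sinusoidal endothelial and stellate cell markers held 0 genes called by edgeR of 16, 14 and 13 tested, 2, 1 and 0 at an unadjusted p under 0.05, and 0 called by DESeq2. Their summed levels overlapped between the diets, with 258.1 to 268.9 CPM on chow and 267.4 to 267.9 on HFD for Kupffer cell markers. Summed markers of T and NK cells, B cells and neutrophils were each under 8 CPM in the wild-type libraries. Erythroid markers moved with the diet, from 320.6 and 258.2 CPM on chow to 830.5 and 655.3 on HFD, with 3 of 4 tested members called higher and Alas2 not called. Of the adipocyte markers Adipoq and Lep were at or under 0.055 CPM in the 4 wild-type libraries, while Cfd and Plin4 were called higher. Of 15 hepatocyte markers 4 were called lower (Fgb, Ahsg, Cps1 and the Ass1 row, which are also members of groups described below) and 0 higher, and the 4 were 0, 0, 0 and 1 without libraries 1, 2, 5 and 6 in turn. The part of blood or of hepatocyte content in the results below was not tested.

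HFD and chow livers of wild-type mice differed in 578 of 12593 tested rows, or 4.59% (edgeR adjusted p under 0.05). In 299 rows (2.37%) the level was higher on HFD, and in 279 rows (2.22%) it was lower. The difference was over 2-fold in 128 of the higher and 118 of the lower rows. The smallest called difference was 0.33 on the log2 scale and the median size of a called difference was 0.87, while the median difference over all tested rows was 0.02. Of the called rows, 54 belong to the reference groups (16 of 27 genes of fatty acid synthesis higher, 16 of 26 of cholesterol synthesis lower, 22 of 57 of xenobiotic metabolism lower), 200 only to other groups examined here, and 324 to no group. Without library 1, 2, 5 or 6 in turn the number of called rows was 35, 51, 97 and 101 for higher and 63, 79, 102 and 81 for lower levels. The reference groups moved with them, as the 16 rises of fatty acid synthesis were 4, 10, 7 and 7 without libraries 1, 2, 5 and 6 in turn, the 16 falls of cholesterol synthesis 7, 3 and 4 without libraries 1, 2 and 6 in turn, and the 22 of xenobiotic metabolism 12, 14 and 12 without libraries 1, 2 and 5 in turn. In fits without a wild-type library the group concerned has 1 library, which is assumed to vary like the other groups. The 2 counts were 617 and 734 when only the 4 wild-type libraries entered the fit. In all 4 fits that left out a wild-type library 78 of the called rows passed, and 0 of the 578 changed sign under any of the 15 alternative settings. Both HFD libraries lay above both chow libraries in 30.6% of all tested rows and below them in 25.2%, and counts of rows whose groups do not overlap are read against these shares. Where all called genes of a group are listed, those beyond the naming rule were chosen after their values were seen. The lists of lost calls below do not cover every called gene named, so a gene missing from them did not always keep its call. Acaa1a, Cidec, Gapdh, C8a and Perp are examples that lost theirs.

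**Figure D1:**
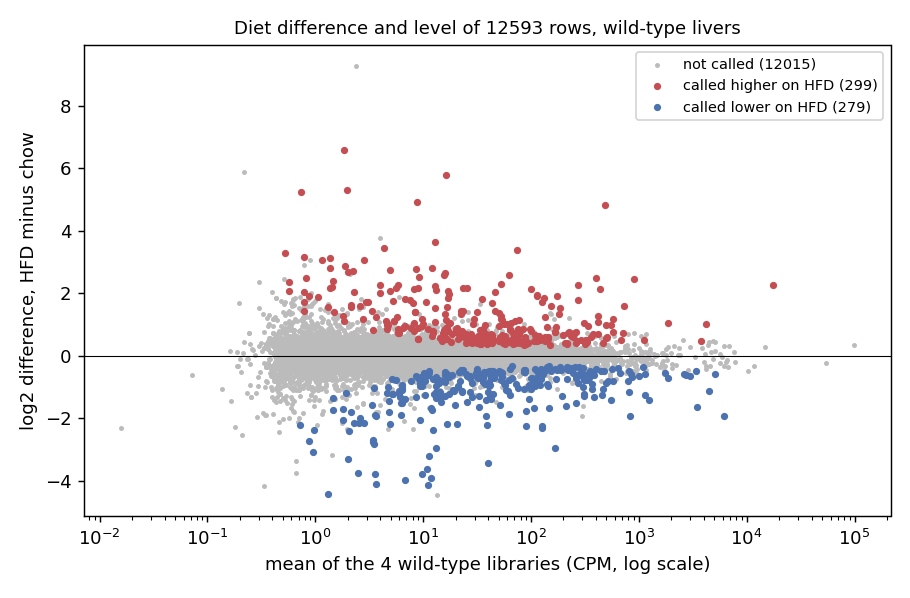
Each point is a tested row, placed by its mean level over the 4 wild-type libraries (CPM, log scale) and by its log2 difference between HFD and chow in wild-type livers. Called rows reach from low to high levels, with 5 higher and 15 lower among the 117 rows above 1000 CPM.

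Among abundant transcripts falls outnumbered rises. Among 117 rows with a mean of at least 1000 CPM, 5 (4.27%) were higher and 15 (12.8%) were lower on HFD, whereas between 1 and 10 CPM the shares were 1.62% and 1.26%. Between 100 and 1000 CPM the shares were 5.96% and 6.91%. Calls in groups of abundant transcripts are read against these classes as well as against all tested rows. The higher rows together gained 45670 CPM, of which Scd1 (stearoyl-CoA desaturase) supplied 50.8%. The largest loss of level among called rows was in Serpina1e, a serine protease inhibitor of the alpha-1 antitrypsin family, with 10213 and 9234 CPM on chow and 1831 and 3268 on HFD (log2 difference -1.93 ± 0.23, edgeR adjusted p = 0.00374). Its highest HFD library held less than the lowest chow library by a wide margin. The neighbouring copies Serpina1a, Serpina1b, Serpina1c and Serpina1d were not called, with log2 differences of -0.32, -0.20, -0.19 and -0.31. These copies are nearly identical in sequence, so the division of reads between them is uncertain. The call of Serpina1e held in every fit that left out a library.

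Of the groups outside the reference groups, that of sugar breakdown held the most called rises. Of 32 tested genes of glycolysis and fructose breakdown 12 rose and 1 fell, and the median log2 difference was 0.20. Genes of fructose handling were among the rises. Khk, the kinase that commits fructose to breakdown, stood at 248 and 286 CPM on chow and 519 and 624 on HFD (log2 difference 1.10 ± 0.11, edgeR adjusted p = 0.00190). Dak, the triokinase that phosphorylates glyceraldehyde, stood at 239 and 243 CPM on chow and 504 and 673 on HFD (log2 difference 1.29 ± 0.14, edgeR adjusted p = 0.00261). Slc2a5, a fructose transporter of low level in liver, stood at 2.90 and 3.25 CPM and 6.41 and 5.85 CPM (log2 difference 0.99 ± 0.21, edgeR adjusted p = 0.0329). In each of these 3 genes both HFD libraries held about 2-fold or more of the level of the chow libraries, with no overlap. Other called rises were Ldha, Gpi1, Gapdh, Pdk1, Slc2a2, Pdhb, the merged row with Eno1, and Pfkfb1, with Slc2a2, the hepatic glucose transporter GLUT2, at 154 and 176 CPM on chow and 264 and 282 on HFD. The single fall was in Aldoc, the brain-type aldolase, with 14.8 and 15.6 CPM on chow and 4.44 and 2.84 on HFD (log2 difference -2.06 ± 0.22, edgeR adjusted p = 0.00239).

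The called genes of glycogen and glucose 6-phosphate were all higher. Among the 25 tested members of this group there were 5 rises and 0 falls, and the median was 0.34. The largest of these rises was in Ppp1r3g, a subunit that directs protein phosphatase 1 to glycogen, with 3.15 and 2.20 CPM on chow and 10.2 and 20.7 on HFD (log2 difference 2.53 ± 0.35, edgeR adjusted p = 0.00754). Gys2, the liver glycogen synthase, stood at 107 and 116 CPM and 152 and 159 CPM (log2 difference 0.49 ± 0.09, edgeR adjusted p = 0.0192), and Ugp2, which makes its substrate UDP-glucose, at 292 and 278 CPM and 398 and 463 CPM (log2 difference 0.59 ± 0.10, edgeR adjusted p = 0.0169). Slc37a4, the transporter that brings glucose 6-phosphate into the endoplasmic reticulum, and Pcx, pyruvate carboxylase, completed the called set. The gluconeogenic enzymes G6pc and Pck1 gave no call. G6pc stood at 947 and 689 CPM on chow and 992 and 1559 on HFD (edgeR adjusted p = 0.159), and Pck1 at 2508 and 2139 CPM and 1671 and 1883 CPM (edgeR adjusted p = 0.113), so that Pck1 was the lower and G6pc the higher on HFD. Of 14 genes of the pentose phosphate pathway and NADPH 3 rose and 0 fell. Nnt, a mitochondrial enzyme that makes NADPH, stood at 77.3 and 70.9 CPM on chow and 124 and 132 on HFD (log2 difference 0.79 ± 0.08, edgeR adjusted p = 0.00225). Rpia and Shpk were the other called members. Ppp1r3g (without 1 or 2), Slc2a5, Slc2a2 and Gys2 (without 1, 2, 5 or 6) and Ugp2 (without 1, 2 or 6) lost their calls when 1 library was left out (edgeR adjusted p up to 0.259). The 12 called glycolytic rises were 4, 5, 6 and 5 without libraries 1, 2, 5 and 6 in turn, and the 5 of gluconeogenesis and glycogen 0, 0, 3, 1, 8 and 8 without libraries 1, 2, 5, 6, 3 and 4 in turn.

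**Figure D2:**
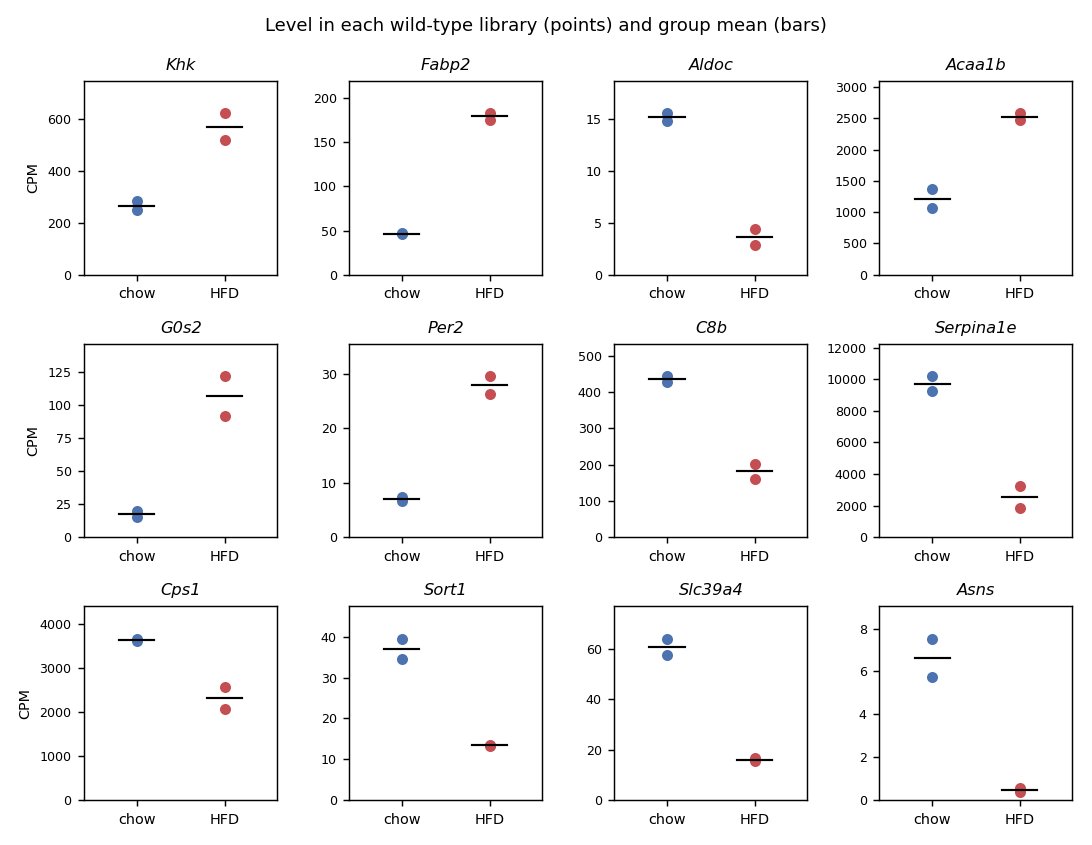
Points are the CPM of 12 genes in each wild-type library, chow in blue and HFD in red, and bars are the group means, with every axis starting at 0. In each of the 12 genes the 2 HFD libraries lie wholly above or wholly below the 2 chow libraries.

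The called genes of fatty acid oxidation and ketone bodies were all higher, and no gene of the respiratory chain was called. Of 47 tested genes of mitochondrial and peroxisomal oxidation 7 rose and 0 fell (median 0.23), and in 32 of the 47 both HFD libraries lay above both chow libraries. The peroxisomal thiolase Acaa1b stood at 1062 and 1366 CPM on chow and 2582 and 2472 on HFD (log2 difference 1.06 ± 0.15, edgeR adjusted p = 0.00796). Crat, carnitine acetyltransferase, stood at 34.5 and 39.5 CPM and 82.6 and 66.4 CPM (log2 difference 1.01 ± 0.15, edgeR adjusted p = 0.00833). Fgf21, a hormone that the liver secretes in fasting and in amino acid or lipid stress, was near the floor on chow with 0.189 and 0.116 CPM and reached 1.67 and 1.15 CPM on HFD (log2 difference 3.16 ± 0.55, edgeR adjusted p = 0.0168). The remaining called members were Acaa1a, Hadh, Acadm and Pex11a. Ppara, the receptor that drives many of these genes, was not called, with 228 and 162 CPM on chow and 372 and 253 on HFD (edgeR adjusted p = 0.155). Cyp4a14, a classic target of that receptor, did not follow the oxidation genes, with 309 and 224 CPM on chow and 264 and 197 on HFD (edgeR adjusted p = 0.876).

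Of 9 tested genes of ketone body metabolism 3 rose and 0 fell. Bdh1, which interconverts the 2 main ketone bodies, stood at 202 and 184 CPM on chow and 306 and 287 on HFD (log2 difference 0.62 ± 0.09, edgeR adjusted p = 0.00796). Acat1, a mitochondrial thiolase, rose by a smaller amount, with a log2 difference of 0.40 ± 0.08. Of 20 genes of the tricarboxylic acid cycle only Idh2, mitochondrial isocitrate dehydrogenase, was called, and it fell from 104 and 98.7 CPM to 77.4 and 70.3 (log2 difference -0.45 ± 0.10, edgeR adjusted p = 0.0443). Of 73 nuclear-encoded genes of oxidative phosphorylation 0 were called by edgeR or by DESeq2, 2 were higher at an unadjusted p under 0.05, and their median was 0.00. The 3 of smallest p were Ndufa8, a subunit of complex I, with a log2 difference of 0.34 ± 0.11, Cycs, cytochrome c, with 0.24 ± 0.10, and Atp5g1, a subunit of ATP synthase, with -0.24 ± 0.11. Mitochondrial carriers of the SLC25 family gave 4 rises and 0 falls among 39 tested. They were Slc25a25, which carries ATP-magnesium, Slc25a44, which carries branched-chain amino acids, the orphan Slc25a45, and Slc25a10, the dicarboxylate carrier, with log2 differences of 0.69 ± 0.10, 0.64 ± 0.10, 0.61 ± 0.10 and 0.74 ± 0.15. Acaa1b (without 1), Fgf21 and Bdh1 (without 1, 2 or 5), Acat1, Slc25a44, Slc25a45 and Slc25a10 (without 1, 2, 5 or 6), Idh2 (without 1, 2, 5, 6, 7 or 8), Slc25a25 (without 1, 2 or 6) and Crat (without 1 or 5) lost their calls when 1 library was left out (edgeR adjusted p up to 0.272). The 7 called oxidation genes were 0, 2, 1 and 4 without libraries 1, 2, 5 and 6 in turn, the 3 ketone genes 0, 0, 0 and 1 without libraries 1, 2, 5 and 6 in turn, and the 4 SLC25 carriers 0, 0, 1 and 0 without libraries 1, 2, 5 and 6 in turn.

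The called genes of fat droplets were all higher. Of 22 tested lipid droplet genes 6 rose and 0 fell. G0s2, an inhibitor of adipose triglyceride lipase, stood at 20.2 and 15.6 CPM on chow and 122 and 91.9 on HFD (log2 difference 2.58 ± 0.45, edgeR adjusted p = 0.0168). Plin5, a droplet coat protein of oxidative tissue, stood at 34.97 and 32.99 CPM and 46.6 and 60.6 CPM (log2 difference 0.66 ± 0.13, edgeR adjusted p = 0.0289), and its relative Plin4 at 10.8 and 9.51 CPM and 16.7 and 28.6 CPM (log2 difference 1.16 ± 0.24, edgeR adjusted p = 0.0306). Mgll, Cidec and Plin2 were the other called members, and the highest of the 22 by fitted difference, Cidea, had 0 counts on chow and was not called. Fatty acid uptake and activation was divided, with 4 of 23 genes higher and 3 lower. The intestinal fatty acid binding protein Fabp2 stood at 46.2 and 46.96 CPM on chow and 183 and 176 on HFD (log2 difference 1.95 ± 0.12, edgeR adjusted p = 0.000170), and the liver form Fabp1 at 3143 and 3076 CPM and 4635 and 4122 CPM (log2 difference 0.49 ± 0.10, edgeR adjusted p = 0.0319). The 3 lower genes were all medium-chain acyl-CoA synthetases, enzymes that activate medium-chain and xenobiotic acids, and they lie next to each other on chromosome 7. Acsm2 stood at 4.22 and 2.72 CPM on chow and 0.635 and 0.656 on HFD (log2 difference -2.41 ± 0.37, edgeR adjusted p = 0.01000), with Acsm1 and Acsm5 at log2 differences of -0.55 ± 0.10 and -0.34 ± 0.08. The fatty acid translocase Cd36 was not called, with 50.1 and 64.1 CPM on chow and 137 and 97.1 on HFD (edgeR adjusted p = 0.176). G0s2, Fabp1 and Acsm1 (without 1, 2, 5 or 6), Acsm5 (without 1, 2, 5, 6, 7 or 8), Plin5 and Plin4 (without 1, 2 or 6) and Acsm2 (without 1, 5 or 6) lost their calls when 1 library was left out (edgeR adjusted p up to 0.237). The 6 droplet calls were 2 and 1 without libraries 1 and 2 in turn, the 4 rises of uptake and activation 1, 1, 1 and 2 without libraries 1, 2, 5 and 6 in turn, and its 3 falls 0, 1, 1 and 0 without libraries 1, 2, 5 and 6 in turn.

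Among 37 genes of apolipoproteins and lipoprotein handling 5 rose and 2 fell. Apoc2, the cofactor of lipoprotein lipase, stood at 106 and 98.9 CPM on chow and 268 and 251 on HFD (log2 difference 1.34 ± 0.09, edgeR adjusted p = 0.000261). Lipg, endothelial lipase, stood at 6.17 and 6.90 CPM and 22.4 and 15.6 CPM (log2 difference 1.54 ± 0.25, edgeR adjusted p = 0.0137), and Abcg5, a component of the sterol exporter into bile, at 67.7 and 86.7 CPM and 150.1 and 313 CPM (log2 difference 1.59 ± 0.29, edgeR adjusted p = 0.0211). HFD library 6 held about 2-fold the Abcg5 level of HFD library 5, and both were above chow. Apoa4 and Mttp were also higher. Sort1, a sorting receptor for apolipoprotein B particles, fell from 34.7 and 39.7 CPM to 13.3 and 13.5 (log2 difference -1.47 ± 0.10, edgeR adjusted p = 0.000261), and Apom, a carrier of sphingosine 1-phosphate on high density lipoprotein, from 183 and 181 to 95.05 and 100.1 (log2 difference -0.90 ± 0.11, edgeR adjusted p = 0.00373). Phospholipid genes gave 3 rises and 2 falls among 40 tested, led by Mfsd2a, a lysophosphatidylcholine transporter, at 12.5 and 13.7 CPM on chow and 130.4 and 141 on HFD (log2 difference 3.38 ± 0.12, edgeR adjusted p = 9.30e-06). Gpcpd1, a glycerophosphocholine hydrolase, was lower, with 133 and 98.7 CPM and 60.2 and 52.4 CPM. Of 30 sphingolipid genes 2 rose and 1 fell. Smpd3, neutral sphingomyelinase 2, stood at 1.45 and 2.61 CPM on chow and 10.1 and 8.47 on HFD (log2 difference 2.18 ± 0.32, edgeR adjusted p = 0.00838), while Asah1, acid ceramidase, went from 33.1 and 33.2 to 22.04 and 20.4 CPM (log2 difference -0.64 ± 0.09, edgeR adjusted p = 0.00775). Abcg5 (without 1 or 2), Lipg (without 1, 2 or 5), Gpcpd1 (without 1, 2, 5 or 6), Asah1 (without 1, 2 or 6) and Smpd3 (without 1 or 5) lost their calls when 1 library was left out (edgeR adjusted p up to 0.222). The 5 rises of lipoprotein handling were 2 and 2 without libraries 1 and 2 in turn, and the 3 of phospholipid genes 1, 1, 1 and 1 without libraries 1, 2, 5 and 6 in turn.

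Bile acid genes fell where they were called. Of 28 tested members 0 rose and 5 fell, and the median was -0.07. They included the hydroxylases Cyp7b1, Cyp7a1 and Cyp27a1 of both synthetic routes. Cyp7b1 stood at 459.5 and 314 CPM on chow and 123 and 147 on HFD, and Cyp27a1 at 567 and 543 CPM and 406 and 385 CPM (log2 difference -0.49 ± 0.11, edgeR adjusted p = 0.0367). Slco1a4, an organic anion uptake transporter, fell from 55.6 and 72.6 CPM to 17.1 and 10.6 (log2 difference -2.21 ± 0.37, edgeR adjusted p = 0.0141), and Abcc4, an efflux pump, from 3.21 and 5.04 to 1.10 and 0.984 (log2 difference -1.99 ± 0.37, edgeR adjusted p = 0.0212). HFD values lay below chow values in all 5. Steroid and eicosanoid metabolism held 2 rises and 2 falls among 36 tested. Cyp17a1, the steroid 17-alpha-hydroxylase, stood at 1.70 and 2.09 CPM on chow and 10.1 and 5.96 on HFD (log2 difference 2.07 ± 0.36, edgeR adjusted p = 0.0157), and Akr1c19, an aldo-keto reductase, at 51.5 and 59.1 CPM and 27.9 and 21.5 CPM (log2 difference -1.16 ± 0.15, edgeR adjusted p = 0.00459). Of 30 genes of retinoid metabolism 0 rose and 3 fell, among them the dehydrogenases Adh4, at 187 and 169 CPM on chow and 135 and 122 on HFD, and Rdh11, at 52.2 and 71.2 CPM and 31.7 and 21.9 CPM. Cyp17a1 (without 1, 2 or 5), Cyp7a1, Cyp27a1, Abcc4, Adh4 and Rdh11 (without 1, 2, 5 or 6) and Slco1a4 (without 1, 2 or 6) lost their calls when 1 library was left out (edgeR adjusted p up to 0.230), and the 5 bile acid calls were 1, 1, 2 and 1 without libraries 1, 2, 5 and 6 in turn. The 3 retinoid calls were 0, 0, 1, 0, 5 and 5 without libraries 1, 2, 5, 6, 3 and 4 in turn.

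The called enzymes that dispose of nitrogen and amino acids were all lower. Of 15 tested genes of the urea cycle and ammonia handling 0 rose and 3 fell (20%), while 12.8% of all rows above 1000 CPM were lower. Cps1, the mitochondrial enzyme that starts the urea cycle, stood at 3676 and 3616 CPM on chow and 2071 and 2573 on HFD (log2 difference -0.65 ± 0.12, edgeR adjusted p = 0.0188). Ass1, argininosuccinate synthase, is joined with Gm5424 in 1 row that cannot be divided, and this row stood at 3106 and 3452 CPM and 2008 and 2267 CPM (log2 difference -0.62 ± 0.11, edgeR adjusted p = 0.0175). Gls2, the liver glutaminase, was the third, with 361 and 426 CPM on chow and 231 and 280.3 on HFD. The remaining steps did not pass, and the group's median was -0.06. Of 65 genes of amino acid breakdown 0 rose and 6 fell (9.23%), with a median of 0.01. The share called lower was 2.22% of all tested rows and 6.91% of those between 100 and 1000 CPM. Csad, which makes taurine precursors from cysteine, stood at 199 and 247 CPM on chow and 67.8 and 73.8 on HFD (log2 difference -1.65 ± 0.16, edgeR adjusted p = 0.00181). Acmsd, a step of tryptophan breakdown that diverts carbon from NAD synthesis, stood at 25.3 and 23.5 CPM and 9.81 and 10.9 CPM (log2 difference -1.23 ± 0.12, edgeR adjusted p = 0.00181), and Cth, which makes cysteine from cystathionine, at 591 and 667 CPM and 274 and 333 CPM (log2 difference -1.05 ± 0.11, edgeR adjusted p = 0.00239). In these 3 genes each HFD library held under 0.6 of the lowest chow value. Hal (histidine ammonia-lyase), Sdsl and Agxt completed the 6. Slc6a6, the taurine transporter, fell as well, from 126 and 123 CPM to 78.4 and 73.5 (log2 difference -0.71 ± 0.12, edgeR adjusted p = 0.0137), and of 28 amino acid transporters 1 rose and 3 fell. Cps1 (without 1, 2 or 5) and the merged Ass1 row, Gls2 and Slc6a6 (without 1, 2, 5 or 6) lost their calls when 1 library was left out (edgeR adjusted p up to 0.232). The 6 lower genes of amino acid breakdown were 3, 3 and 3 without libraries 1, 2 and 5 in turn, and the 3 of the urea cycle 0, 0, 0 and 1 without libraries 1, 2, 5 and 6 in turn.

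Genes of serine and asparagine synthesis and of the response to ATF4, a transcription factor induced when amino acids run short, changed in both directions. Of 32 tested members 3 rose and 2 fell. Asns, asparagine synthetase, stood at 5.73 and 7.54 CPM on chow and 0.577 and 0.383 on HFD (log2 difference -3.78 ± 0.29, edgeR adjusted p = 0.000476), which is among the largest falls of all rows. Atf5, a sister factor of ATF4, stood at 266 and 264 CPM and 369.6 and 387 CPM (log2 difference 0.51 ± 0.08, edgeR adjusted p = 0.0116), and Slc1a4, a transporter of alanine, serine and cysteine, at 5.48 and 5.28 CPM and 11.1 and 11.1 CPM (log2 difference 1.04 ± 0.23, edgeR adjusted p = 0.0371). Fgf21, described above, also rose, and Cth fell. Trib3 and Ddit3, other targets of this response, were not called, with log2 differences of -0.33 ± 0.26 and 0.40 ± 0.17. The letters TGATGNAA, the core of the amino acid response element that ATF4 binds, were searched on both strands of the RefSeq promoter windows of build GRCm38.p6, from 250 bases before to 50 bases after the start. They occurred in 11 of the 27 members with a window (40.7%), against 2.77% of the 10005 tested genes with one, and in 3 of the 4 called members with one. Those 3 promoters are shown because they carry the same letters in genes that moved in opposite directions, Asns down and Fgf21 and Slc1a4 up. Each is written 5′ to 3′ on the strand of its gene, and capitals mark the match, read from the other strand in Fgf21 and Slc1a4.
Asns, chr6:7693160-7693459, minus strand: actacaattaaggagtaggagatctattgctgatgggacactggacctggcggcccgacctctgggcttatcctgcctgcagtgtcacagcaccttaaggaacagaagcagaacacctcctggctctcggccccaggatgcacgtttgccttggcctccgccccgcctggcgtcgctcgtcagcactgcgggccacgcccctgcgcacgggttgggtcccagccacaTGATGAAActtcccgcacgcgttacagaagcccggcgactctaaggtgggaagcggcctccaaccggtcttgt
Fgf21, chr7:45615441-45615740, minus strand: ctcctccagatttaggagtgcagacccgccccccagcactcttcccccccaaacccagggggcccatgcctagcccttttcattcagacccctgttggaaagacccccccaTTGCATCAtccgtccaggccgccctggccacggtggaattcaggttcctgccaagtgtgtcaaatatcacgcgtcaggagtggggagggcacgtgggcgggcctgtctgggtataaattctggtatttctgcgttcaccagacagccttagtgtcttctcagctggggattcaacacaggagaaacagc
Slc1a4, chr11:20332664-20332963, minus strand: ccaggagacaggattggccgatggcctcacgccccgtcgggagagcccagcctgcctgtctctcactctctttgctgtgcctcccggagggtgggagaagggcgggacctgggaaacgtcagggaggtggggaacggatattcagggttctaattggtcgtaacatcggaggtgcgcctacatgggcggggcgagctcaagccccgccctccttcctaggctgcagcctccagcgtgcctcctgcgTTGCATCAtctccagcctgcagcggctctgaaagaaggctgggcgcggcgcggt
These letters are a description of the windows and not a measured binding site. The list was drawn up from genes known for this response, so their excess over all promoters is a trait of the list and not a result of the diet. The motifs searched below were likewise chosen for their lists. Fgf21 (without 1, 2 or 5) and Atf5 and Slc1a4 (without 1, 2, 5 or 6) lost their calls when 1 library was left out (edgeR adjusted p up to 0.234), while the call of Asns held in every such fit.

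Ribosomal protein genes were slightly lower on HFD and chaperones of the secretory pathway slightly higher. Of 80 tested cytosolic ribosomal protein genes 6 were called lower and 0 higher, and in 79 of the 80 both HFD libraries lay below both chow libraries, against 25.2% of all tested rows. The exception, Rps27l, overlapped. Their median log2 difference was -0.31, and their summed level was 14122.5 and 14069.3 CPM in the chow libraries and 10929.1 and 11768.6 in the HFD libraries. The decrease was thus small for each gene and shared by nearly all of them, and HFD library 5 was the lower of the HFD pair. Rps18, a protein of the small subunit, stood at 219 and 215 CPM on chow and 156 and 162 on HFD (log2 difference -0.45 ± 0.09, edgeR adjusted p = 0.0320), and Rpl12, of the large subunit, at 154 and 153 CPM and 89.4 and 112 CPM (log2 difference -0.61 ± 0.14, edgeR adjusted p = 0.0435). Rps3, Rps24 and Rps4x were also called. The count of calls depended on the fit, with 0 in each fit that left out a wild-type library, 15 with DESeq2 and 56 with the 4 wild-type libraries alone. Scaling by RLE or by the upper quartile moved the median to -0.33. In het-labelled livers the same 80 genes had a median of -0.07 and 0 calls. Many ribosomal protein genes have processed pseudogenes of near-identical sequence, so their counts are uncertain in part. The 73 genes of oxidative phosphorylation, measured in the same libraries, had 14 members above and 16 below in the same sense, and a median of 0.00.

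Genes of endoplasmic reticulum chaperones and the unfolded protein response stood higher on HFD in both libraries, most of them by less than the test could call. In 30 of 37 tested members both HFD libraries lay above both chow libraries, against 30.6% of all tested rows, and in 1 below, and the median was 0.29. Only Derl2, a component of the machinery that exports misfolded proteins from the endoplasmic reticulum, passed the test, with 74.8 and 84.9 CPM on chow and 100.4 and 114 on HFD (log2 difference 0.42 ± 0.10, edgeR adjusted p = 0.0479). Hspa5, the main lumenal chaperone (BiP), was chosen after its values were seen. It stood at 642 and 561 CPM on chow and 1012 and 939 on HFD (log2 difference 0.70 ± 0.21, edgeR adjusted p = 0.110). Xbp1, a transcription factor of this response, stood at 171 and 147 CPM and 156 and 155 CPM, with overlapping groups. The count of 1 was 0 without library 1, 2, 5 or 6, 13 with the wild-type libraries alone and 5 with DESeq2. Of 34 cytosolic chaperones and 37 proteasome subunits 0 were called by edgeR. At an unadjusted p under 0.05 there were 12 chaperones, all higher, with 3 called by DESeq2, and 4 proteasome subunits, with 0. The share of all tested rows at that threshold is not given here, so these counts cannot be read against it. Fkbp4, Chordc1 and Hspa8 were the chaperones of smallest p, with log2 differences of 0.46 ± 0.12, 0.63 ± 0.20 and 0.57 ± 0.19, and Psmd14, Psmd1 and Psmb10 the subunits, with 0.30 ± 0.09, 0.25 ± 0.09 and -0.36 ± 0.15. Of 51 autophagy and lysosome genes the only called member was Gabarapl1, a protein of autophagosome membranes, which fell from 445 and 401 CPM to 262 and 260.3 (log2 difference -0.69 ± 0.16, edgeR adjusted p = 0.0446). The medians of these 3 groups were 0.18, 0.06 and -0.10. Rps18 and Rpl12 (without 1, 2, 5 or 6) and Derl2 and Gabarapl1 (without 1, 2, 5, 6, 7 or 8) lost their calls when 1 library was left out (edgeR adjusted p up to 0.393).

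**Figure D3:**
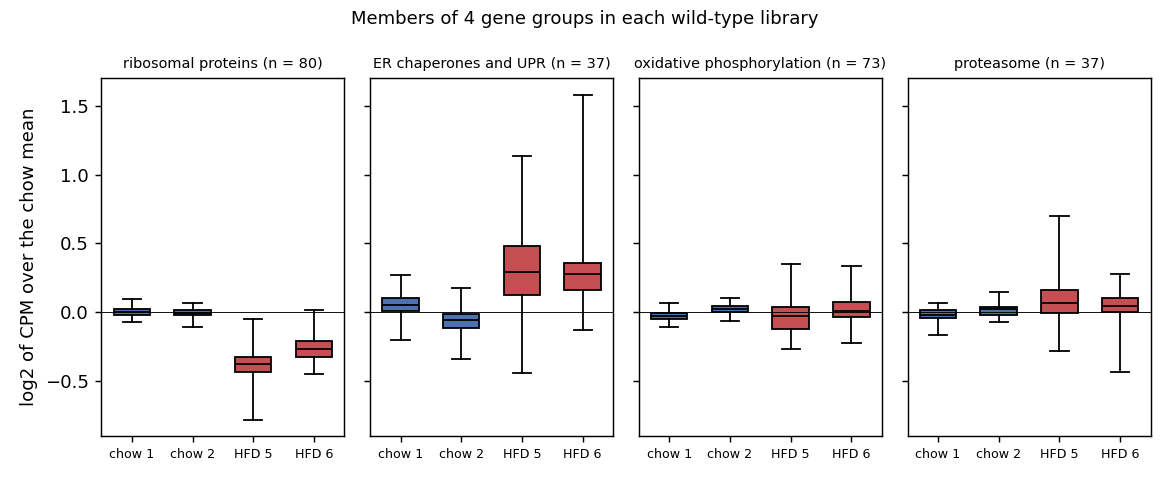
Boxes show the quartiles and whiskers the full range of the log2 ratio of each member's CPM to its chow mean, in each wild-type library, for 4 gene groups. The median of the ribosomal protein genes is -0.38 and -0.27 in HFD libraries 5 and 6, that of the chaperones 0.29 and 0.28, and those of the other 2 groups lie within 0.07 of 0.

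Nearly all called genes of complement, coagulation and the acute phase were lower. Of 53 tested genes of complement and coagulation 11 fell (20.8%) and 1 rose (median -0.19), and in 34 of 53 both HFD libraries lay below both chow libraries. Of all tested rows 2.22% were called lower, with 6.91% between 100 and 1000 CPM and 12.8% above 1000 CPM. The terminal complement gene C8b stood at 445 and 428 CPM on chow and 160.3 and 202 on HFD (log2 difference -1.27 ± 0.14, edgeR adjusted p = 0.00263). C2, a protease of the classical pathway, stood at 132 and 122 CPM and 63.9 and 69.4 CPM (log2 difference -0.93 ± 0.10, edgeR adjusted p = 0.00299), and C6, of the terminal complex, at 392 and 342 CPM and 238 and 228 CPM (log2 difference -0.65 ± 0.10, edgeR adjusted p = 0.0116). C3, the central component, was the most abundant of them, at 6842 and 5483 CPM on chow and 2655 and 2955 on HFD. Other lower members were Hc (complement 5), C8a, C1ra, Cfi and the vitamin K-dependent proteins Pros1 and Proz. The single rise was Cfd (adipsin, complement factor D), at 0.504 and 0.580 CPM on chow and 20.9 and 12.96 on HFD (log2 difference 4.94 ± 0.81, edgeR adjusted p = 0.0131). Cfd is best known as a product of fat cells. The 9 adipocyte markers summed to 2679 and 3594 CPM on chow and 3894 and 5041 on HFD, mostly from Car3, and the 4 that were tested (Cfd, Plin4, Car3 and Fabp4) were all above chow in both HFD libraries. Fabp4 stood at 4.54 and 5.10 CPM on chow and 6.64 and 7.11 on HFD and Car3 at 2663 and 3578 CPM and 3849.8 and 4992 CPM, neither called, while Adipoq was at 0.055 CPM or less and Lep at 0. The part of fat tissue in the rise of Cfd was not tested.

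Of 34 acute phase genes 9 fell (26.5%) and 0 rose, with a median of -0.32. The share called lower was 2.22% of all tested rows and 12.8% of those above 1000 CPM. Orm1 and Orm2, which encode alpha-1 acid glycoproteins, stood at 620.4 and 661 CPM and 28.1 and 27.7 CPM on chow and at 373 and 325 and 15.7 and 12.2 CPM on HFD (log2 differences -0.88 ± 0.12 and -0.999 ± 0.13, edgeR adjusted p = 0.00591 and 0.00483). Hpx, the heme carrier hemopexin, stood at 3258 and 2993 CPM on chow and 1988 and 2202 on HFD (log2 difference -0.58 ± 0.10, edgeR adjusted p = 0.0157). Saa3, Saa1, Itih3, Lbp, Il6ra and Fgb were also lower. Il6ra, the receptor subunit for interleukin 6, which induces this group, stood at 16.8 and 19.7 CPM and 8.71 and 7.76 CPM. Not every member followed, as Saa2 overlapped between diets with a log2 difference of -0.03. Letters of the STAT type, TTCNNNGAA, were in the promoter windows of 6 of 27 members (22.2%) and of 8.52% of all tested genes with a window, but in only 1 of the 7 called members with a window. Alb, the most abundant of the hepatocyte markers, stood at 60977 and 56466 CPM on chow and 51024 and 48823 on HFD and was not called (edgeR adjusted p = 0.432), and Ttr overlapped with a log2 difference of 0.06 ± 0.10. Cfd and Hpx (without 1, 2 or 5), Il6ra, Lbp and Fgb (without 1, 2, 5 or 6), Saa1 (without 1, 2 or 6), Itih3 (without 1 or 5), C6 (without 1, 5 or 6) and Orm1 (without 2) lost their calls when 1 library was left out (edgeR adjusted p up to 0.281). The 11 complement and coagulation calls were 3, 4, 3 and 4 without libraries 1, 2, 5 and 6 in turn, and the 9 acute phase calls 3, 3, 5 and 5 without libraries 1, 2, 5 and 6 in turn.

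Hepatokines and the growth hormone axis changed in both directions, with 3 rises and 4 falls among 40 tested genes. Enho, which encodes adropin, stood at 13.6 and 11.9 CPM on chow and 0.577 and 1.04 on HFD (log2 difference -3.96 ± 0.45, edgeR adjusted p = 0.00299). Fetub, fetuin B, stood at 433 and 396 CPM and 232 and 253 CPM (log2 difference -0.78 ± 0.11, edgeR adjusted p = 0.00796). Its relative Ahsg, fetuin A, went from 6481 and 5743 to 3733 and 4401 CPM (log2 difference -0.59 ± 0.12, edgeR adjusted p = 0.0336), and Igfbp2, an IGF binding protein, from 414 and 403 to 195 and 215 CPM (log2 difference -0.995 ± 0.20, edgeR adjusted p = 0.0302). Inhbe, which encodes activin E, moved the other way, with 18.1 and 17.4 CPM on chow and 96.6 and 78.95 on HFD (log2 difference 2.31 ± 0.35, edgeR adjusted p = 0.00966), and Fgf21 and Lect2 were the other rises. Igf1 itself was lower in both HFD libraries without passing (edgeR adjusted p = 0.0536). Receptors for hormones gave 1 rise and 5 falls among 39 tested. Adipor2, an adiponectin receptor, rose from 558 and 581 CPM to 809.6 and 798. The falls were Adrb3 (beta-3 adrenergic), P2rx4 (ATP-gated), Avpr1a (vasopressin), Prlr (prolactin) and Agtr1a (angiotensin), and Avpr1a stood at 41.96 and 33.6 CPM on chow and 15.98 and 18.2 on HFD (log2 difference -1.14 ± 0.21, edgeR adjusted p = 0.0197). Inhbe (without 1 or 2), Adrb3 (without 1, 2 or 5), Ahsg, Igfbp2, Lect2, Adipor2, P2rx4, Avpr1a and Agtr1a (without 1, 2, 5 or 6), Fetub (without 1 or 5) and Prlr (without 1, 5 or 6) lost their calls when 1 library was left out (edgeR adjusted p up to 0.322). The 5 receptor falls were 0, 1, 0 and 1 without libraries 1, 2, 5 and 6 in turn, and the 4 hepatokine falls 1, 2, 1, 2, 7, 7, 7 and 7 without libraries 1, 2, 5, 6, 3, 4, 7 and 8 in turn.

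Genes that mark either end of the liver lobule held more falls than rises. Of 24 tested periportal genes 7 fell and 2 rose (median -0.41), and of 26 pericentral genes 5 fell and 3 rose (median -0.09). These 2 shares were not tested against each other. Cdh1, the epithelial cadherin, stood at 46.4 and 47.5 CPM on chow and 18.3 and 20.01 on HFD (log2 difference -1.29 ± 0.16, edgeR adjusted p = 0.00374), and Pigr, the receptor that carries immunoglobulin A into bile, at 1401 and 1353 CPM and 859.7 and 991 CPM (log2 difference -0.57 ± 0.10, edgeR adjusted p = 0.0157). Cps1, the Ass1 row, Hal, Gls2 and Aldh1b1 were the other lower periportal genes, and Mfsd2a and Apoc2 the higher. Of the lower pericentral genes, Cyp1a2 and Gstm3 also belong to the xenobiotic reference group, with log2 differences of -1.41 and -2.23. Their calls held in each fit that left out a wild-type library. At the central end Axin2, a direct target of Wnt signals, stood at 13.3 and 11.1 CPM and 6.87 and 6.51 CPM (log2 difference -0.86 ± 0.16, edgeR adjusted p = 0.0198), and Slc1a2, a glutamate transporter, at 215 and 167 CPM and 109 and 87.3 CPM (log2 difference -0.96 ± 0.16, edgeR adjusted p = 0.0138). Glul, glutamine synthetase of the cells next to the central vein, overlapped between the diets with 955 and 992 CPM on chow and 1053 and 818 on HFD. Aldh3a2, a fatty aldehyde dehydrogenase, was a pericentral gene that rose, from 336 and 376 CPM to 849 and 767 (log2 difference 1.18 ± 0.24, edgeR adjusted p = 0.0278).

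Of 24 genes known to be higher in male than in female mouse liver 7 fell and 1 rose, with a median of -0.37. Susd4, a complement regulator, stood at 39.9 and 41.2 CPM on chow and 17.1 and 15.5 on HFD (log2 difference -1.31 ± 0.12, edgeR adjusted p = 0.00148), and Gstp1, a glutathione transferase, at 1580.3 and 1587 CPM and 610.3 and 736 CPM (log2 difference -1.23 ± 0.13, edgeR adjusted p = 0.00222). Selenbp2, a selenium binding protein, went from 1396 and 1243 to 291 and 399.96 CPM (log2 difference -1.93 ± 0.23, edgeR adjusted p = 0.00361). Serpina1e, Cyp7b1, Ugt2b38 and C6 were the remaining falls, and Gstp1 and Selenbp2 each have a close copy with which reads may be shared. Genes known to be higher in females gave 2 rises (Ntrk2, Cyp17a1) and 4 falls (Cyp3a44, Prlr, Cyp2a4, Cyp3a16) among 25 tested, with a median of 0.12. The balance of the female-high calls depended on the libraries, with 5 rises and 4 falls without library 7 or 8, 2 rises and 0 falls without library 6, 0 rises and 1 fall without library 2, and 0 of either without library 1 or 5. Mup20 and Elovl3, also male-high, were not called, with log2 differences of -0.35 and -0.21. Pigr and Ntrk2 (without 1, 2 or 5), Axin2, Aldh3a2, Cyp3a44, Cyp2a4 and Cyp3a16 (without 1, 2, 5 or 6) and Slc1a2 (without 1 or 6) lost their calls when 1 library was left out (edgeR adjusted p up to 0.258). The 7 periportal falls were 1, 1 and 1 without libraries 1, 2 and 5 in turn, the 5 pericentral falls 2, 3, 3 and 2 without libraries 1, 2, 5 and 6 in turn, the 3 pericentral rises 0 without any 1 of libraries 1, 2, 5 and 6, and the number of male-high falls stayed between 5 and 6 in the fits that left out a wild-type library.

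**Figure D4:**
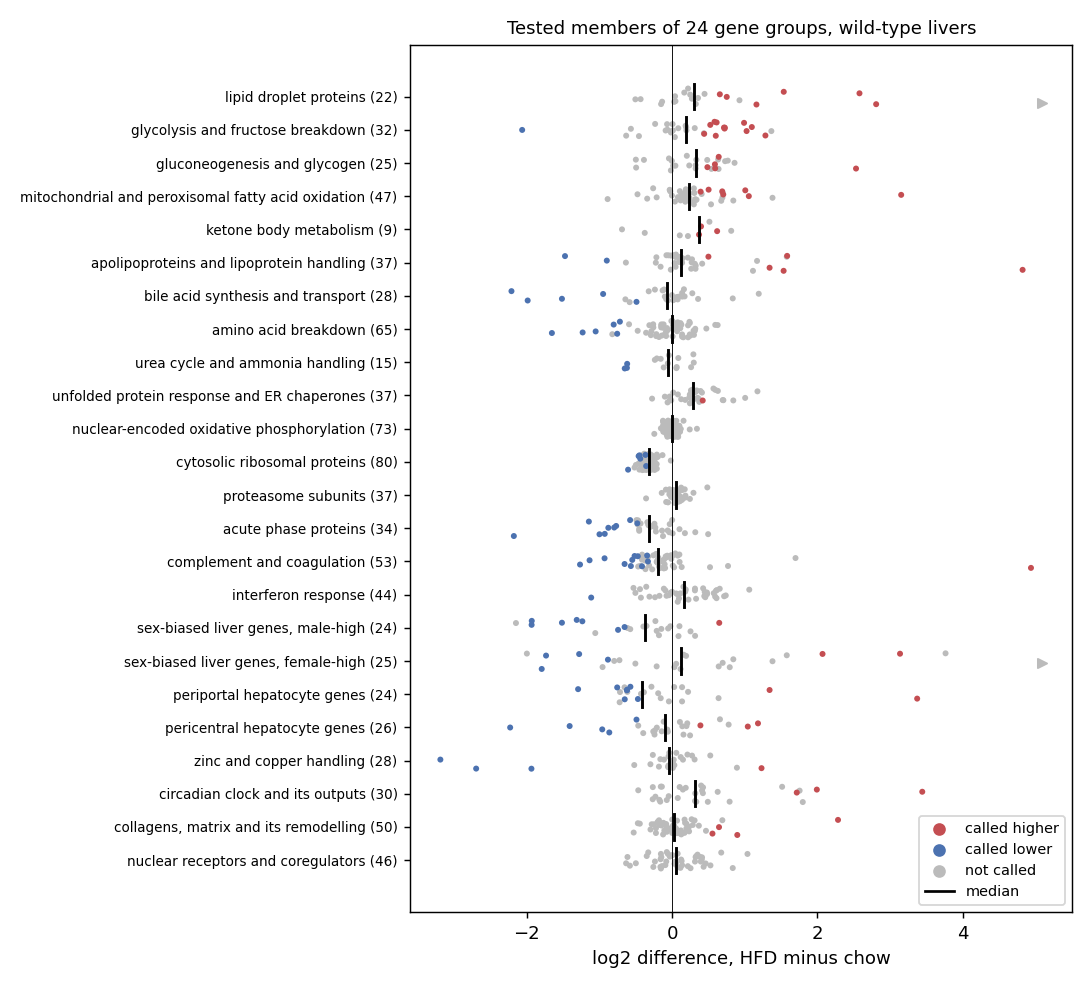
Each point is a tested member of the named gene group (number tested in brackets), placed by its log2 difference between HFD and chow in wild-type livers, and black lines are medians. Rises dominate the called members of the sugar, oxidation and droplet groups. Falls dominate those of the acute phase, complement and coagulation, bile acid and periportal groups. Triangles are Cidea and Cyp2b13, which had 0 counts on chow and lie beyond the axis.

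Among genes of zinc handling 3 fell and 1 rose. Slc39a4, a zinc importer, stood at 64.1 and 57.4 CPM on chow and 16.4 and 15.3 on HFD (log2 difference -1.94 ± 0.13, edgeR adjusted p = 0.000261). The metallothioneins, small proteins that bind zinc and copper, stood low on HFD. Mt1 stood at 26.5 and 14.8 CPM on chow and 2.54 and 1.97 on HFD (log2 difference -3.19 ± 0.62, edgeR adjusted p = 0.0250), and Mt2 at 6.87 and 4.93 CPM and 1.27 and 0.547 CPM (log2 difference -2.70 ± 0.38, edgeR adjusted p = 0.00775). Slc39a10, another importer of the same family, rose from 3.47 and 3.42 CPM to 8.77 and 7.44 (log2 difference 1.23 ± 0.25, edgeR adjusted p = 0.0285), and these 4 were the called members of 28 genes of zinc and copper. Of 34 iron genes only Slc40a1, the iron exporter ferroportin, was called, and it fell from 103 and 98.1 CPM to 69.2 and 77.7 (log2 difference -0.45 ± 0.10, edgeR adjusted p = 0.0375). Hamp, the hormone hepcidin that controls it, was not called, with 446 and 434 CPM on chow and 189 and 447 on HFD, so that the HFD libraries differed by more than 2-fold. Antioxidant genes gave 4 falls and 1 rise among 40 tested. Osgin1, an oxidative stress response gene, fell from 289 and 262 CPM to 118 and 109.95 (log2 difference -1.27 ± 0.20, edgeR adjusted p = 0.0116), while Nfe2l2, which encodes NRF2 itself, rose from 55.5 and 63.6 to 113 and 103 CPM (log2 difference 0.86 ± 0.18, edgeR adjusted p = 0.0329). Mt1, Slc39a10, Slc40a1, Osgin1 and Nfe2l2 (without 1, 2, 5 or 6) and Mt2 (without 1 or 6) lost their calls when 1 library was left out (edgeR adjusted p up to 0.267), and the 4 antioxidant falls were 1, 1, 1 and 1 without libraries 1, 2, 5 and 6 in turn.

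Clock genes rose where they were called. Of 30 tested members 3 rose and 0 fell (median 0.32). Per2, a repressor of the core clock, stood at 6.68 and 7.30 CPM on chow and 26.2 and 29.6 on HFD (log2 difference 1.99 ± 0.27, edgeR adjusted p = 0.00678). Bhlhe40 stood at 44.04 and 72.9 CPM and 177 and 208 CPM (log2 difference 1.72 ± 0.24, edgeR adjusted p = 0.00751), and Dbp, a clock output factor, at 0.504 and 0.928 CPM and 13.1 and 2.90 CPM (log2 difference 3.45 ± 0.75, edgeR adjusted p = 0.0371). The HFD libraries differed from each other in this group, since Dbp was over 4-fold higher in library 5 than in library 6 and Nr1d1, with 44.04 and 48.9 CPM on chow, stood at 78.3 and 45.6 on HFD. The time of day at which livers were taken is not given in the labels, and its part in these values was not tested. In the promoter windows the E-box CACGTG was found in 6 of 24 clock genes (25%) against 11.7% of all, and the D-box TTANGTAA in 2 (8.33%) against 1.93%. Of the called clock genes 1 had a window, and it held neither. Immediate early genes gave 2 rises, Nr4a2 and Dusp1, among 28 tested. Growth arrest genes of the p53 type gave 5 rises and 0 falls among 38, with Gadd45a at 1.32 and 1.39 CPM on chow and 5.31 and 3.72 on HFD (log2 difference 1.72 ± 0.37, edgeR adjusted p = 0.0345) and Aen, an exonuclease, at 11.3 and 11.4 CPM and 19.5 and 20.6 CPM (log2 difference 0.82 ± 0.15, edgeR adjusted p = 0.0183). Perp, Ccng1 and Dusp1 were the others, and Cdkn1a was not called, with HFD library 6 highest among 7.88 and 7.48 CPM on chow and 11.1 and 19.2 on HFD. Per2 (without 1 or 2), Dbp (without 1, 2 or 5), Gadd45a and Aen (without 1, 2, 5 or 6), Nr4a2 (without 1, 2 or 6) and Dusp1 (without 1, 5, 6, 7 or 8) lost their calls when 1 library was left out (edgeR adjusted p up to 0.263). The 3 clock rises were 1, 1, 5, 5 and 5 without libraries 1, 2, 6, 7 and 8 in turn, and the 5 of the p53 type 0, 1, 1 and 0 without libraries 1, 2, 5 and 6 in turn.

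Calls among genes of inflammation and fibrosis were few in number, and are read against 2.37% higher and 2.22% lower of all tested rows. The shares called lower were 2.27% for the interferon response and 5.56% for chemokine, cytokine and NF-kB genes. Those called higher were 4% for antigen presentation and 8% for collagen and matrix genes. Of 44 interferon response genes 0 rose and 1 row, that of Ifi47, fell. Of 36 chemokine, cytokine and NF-kB genes 0 rose and 2 fell. They were Ccl9, a chemokine, at 43.3 and 56.8 CPM on chow and 18.5 and 13.8 on HFD (log2 difference -1.63 ± 0.22, edgeR adjusted p = 0.00584), and Icam1, an adhesion molecule, at 7.62 and 6.49 CPM and 4.27 and 3.99 CPM (log2 difference -0.77 ± 0.17, edgeR adjusted p = 0.0409). Antigen presentation gave 1 call of 25, a rise of the peptide transporter Tap1. Of 50 collagen and matrix genes 4 rose and 0 fell, and none was a fibrillar collagen of type I or III. Lamb3, a laminin chain, stood at 1.76 and 2.20 CPM on chow and 10.6 and 8.91 on HFD (log2 difference 2.29 ± 0.27, edgeR adjusted p = 0.00354), and Col27a1, Col5a3 and Col15a1 had log2 differences of 0.65 ± 0.10, 0.56 ± 0.12 and 0.90 ± 0.21. Cell cycle genes gave 2 rises of 40, Rrm2 (a ribonucleotide reductase subunit) and the merged row of Ccnf. Of 46 cytoskeletal genes 3 rose and 2 fell. Actg1, cytoplasmic gamma actin, stood at 94.1 and 102 CPM on chow and 183 and 189 on HFD (log2 difference 0.92 ± 0.09, edgeR adjusted p = 0.00186), Tubb2a and Tubb2b rose with it, and the alpha tubulin Tuba8 fell from 4.54 and 2.84 to 0.519 and 0.219 CPM (log2 difference -3.30 ± 0.43, edgeR adjusted p = 0.00548). Tap1 (without 1, 2 or 5), Col5a3, Col15a1, Rrm2 and Tubb2a (without 1, 2, 5 or 6), Icam1 (without 1, 2, 5, 6, 7 or 8), Col27a1 (without 1, 2 or 6) and Tubb2b (without 1, 5 or 6) lost their calls when 1 library was left out (edgeR adjusted p up to 0.350). The 4 matrix calls were 1, 1, 2 and 1 without libraries 1, 2, 5 and 6 in turn.

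Few genes of nuclear receptors, of histone and DNA modifying enzymes and of insulin signalling were called. Of 46 nuclear receptors and coregulators 0 were called by edgeR, 10 had an unadjusted p under 0.05 (7 higher, 3 lower), and DESeq2 called 1. As for the chaperones, the count at an unadjusted p has no share of all tested rows beside it. The 3 of smallest p were Esrra, a receptor tied to mitochondrial genes, with a log2 difference of 0.46 ± 0.11, and the orphan receptors Nr2c1 and Nr2c2 with -0.63 ± 0.16 and -0.61 ± 0.17. Of 61 other histone and DNA modifying enzymes only Kdm3a, a histone demethylase, was, with 27.03 and 26.7 CPM on chow and 18.9 and 20.7 on HFD (log2 difference -0.44 ± 0.10, edgeR adjusted p = 0.0386). Insulin signalling gave 1 rise of 36, Pik3r1, the regulatory subunit of phosphoinositide 3-kinase, at 47.1 and 54.8 CPM and 79.3 and 91.6 CPM (log2 difference 0.74 ± 0.17, edgeR adjusted p = 0.0456). Irs2, an insulin receptor substrate, overlapped between diets, with 19.8 and 14.4 CPM on chow and 6.002 and 15.5 on HFD. Rgs16, a brake on G protein signals, stood at 2.02 and 1.80 CPM on chow and 34.7 and 12.9 on HFD (log2 difference 3.64 ± 0.65, edgeR adjusted p = 0.0175). Purine, pyrimidine and NAD genes gave 3 rises and 3 falls of 52, among them Uck1, a uridine kinase, up at 37.6 and 42.1 and 80.7 and 81.6 CPM, and Pnp, purine nucleoside phosphorylase, down at 126 and 125 and 79.6 and 75.2 CPM. One-carbon and choline genes gave 1 fall of 41, Sat1. Heme genes gave 1 rise (Abcg2) and 2 falls (Hpx, Pgrmc1) of 24. The shares higher and lower were 5.77% and 5.77% for the purine, pyrimidine and NAD genes and 4.17% and 8.33% for the heme genes. Of all tested rows 2.37% were higher and 2.22% lower. Transporters of organic ions gave 3 rises and 3 falls of 44 (6.82% each). Slc17a8, a vesicular glutamate transporter, stood at 7.18 and 11.4 CPM on chow and 39.5 and 44.9 on HFD (log2 difference 2.18 ± 0.25, edgeR adjusted p = 0.00320), while Slc13a2, a citrate and dicarboxylate transporter, stood at 4.22 and 7.65 CPM and 0.577 and 1.15 CPM (log2 difference -2.77 ± 0.42, edgeR adjusted p = 0.00966). The water channel Aqp4 rose from 2.84 and 3.71 to 14.9 and 14.5 CPM (log2 difference 2.16 ± 0.17, edgeR adjusted p = 0.000628), 1 of 2 rises among 33 channels. Rgs16 (without 1, 2 or 5), Kdm3a, Pik3r1, Uck1, Sat1 and Abcg2 (without 1, 2, 5 or 6), Pgrmc1 (without 1, 2, 5, 6, 7 or 8), Pnp (without 1, 2 or 6) and Slc13a2 (without 2 or 5) lost their calls when 1 library was left out (edgeR adjusted p up to 0.336).

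Imprinted noncoding RNAs and several surface proteins were among the largest falls. Rian and the row that joins Meg3 with microRNA host symbols come from 1 imprinted cluster. Rian stood at 7.75 and 6.03 CPM on chow and 0.577 and 0.219 on HFD, and the Meg3 row at 22.7 and 17.4 CPM and 1.73 and 1.53 CPM. They were 2 of the 3 called members of 25 imprinted genes, and the third, the merged row of Snrpn, rose. Vtcn1, an immune checkpoint ligand, fell from 1.83 and 3.25 CPM to 0.115 and 0.109 (log2 difference -4.41 ± 0.53, edgeR adjusted p = 0.00374), Gpr110, an adhesion receptor, from 26.96 and 15.3 to 1.39 and 1.04 CPM (log2 difference -4.12 ± 0.58, edgeR adjusted p = 0.00775), and Clec2h, a C-type lectin, from 24.9 and 19.5 to 1.90 and 1.09 CPM (log2 difference -3.89 ± 0.47, edgeR adjusted p = 0.00375). The HFD values of Vtcn1 lie under the level of 3 counts, so its size is not well fixed. Erdr1, Gm3893 and Cib3 were the other falls among the 15 largest outside the groups above. At the opposite end, the largest rises among called genes of at least 1 CPM were the patatin-like lipases Pnpla5 and Pnpla3, with Pnpla5 at 0 and 0.0580 CPM on chow and 5.02 and 2.35 on HFD (log2 difference 6.60 ± 0.87, edgeR adjusted p = 0.00796). Stap1, a signalling adaptor, followed with 0.126 and 0.0580 CPM and 4.16 and 3.61 CPM (log2 difference 5.31 ± 0.45, edgeR adjusted p = 0.000846). Chow values of both were under the level of 3 counts, so the sizes of their rises are not well fixed either. Atp2b2, a plasma membrane calcium pump, stood at 0.819 and 0.406 CPM and 3.92 and 6.29 CPM (log2 difference 3.06 ± 0.38, edgeR adjusted p = 0.00432), and Igf2bp2, an RNA binding protein, at 0.378 and 0.290 CPM and 2.02 and 2.79 CPM (log2 difference 2.83 ± 0.37, edgeR adjusted p = 0.00548). Sema5b, a semaphorin, stood at 2.58 and 1.86 CPM and 13.9 and 16.3 CPM (log2 difference 2.77 ± 0.45, edgeR adjusted p = 0.0125), and Aim1l and Dntt complete the rises named by the rule. Gm3893, Pnpla5, Igf2bp2 and Aim1l (without 1 or 2), Dntt (without 1, 2 or 5), the merged Snrpn row (without 1, 2, 5 or 6), Erdr1 and Sema5b (without 1, 2 or 6), Cib3 (without 2 or 6), Gpr110 (without 5 or 6) and the merged Meg3 row (without 6) lost their calls when 1 library was left out (edgeR adjusted p up to 0.311).

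A panel of 61 genes, which includes genes of fatty liver, fasting and insulin, was followed by name. It was chosen with earlier results of these data known, so its number of calls is not an independent result. Of the panel 13 (21.3%) were called higher and 8 (13.1%) lower, against 2.37% and 2.22% of all tested rows. Besides those above, the annexin Anxa2 stood at 8.63 and 9.33 CPM on chow and 25.97 and 19.6 on HFD (log2 difference 1.34 ± 0.20, edgeR adjusted p = 0.01000), and its partner S100a10 at 62.4 and 77.2 CPM and 137 and 116 CPM (log2 difference 0.86 ± 0.17, edgeR adjusted p = 0.0265). Gpc1, a glypican, stood at 5.80 and 3.36 CPM and 25.7 and 17.2 CPM (log2 difference 2.23 ± 0.39, edgeR adjusted p = 0.0165). The HFD libraries were above the chow libraries in these 3 genes, and het-labelled livers had log2 differences of 0.06 ± 0.22, 0.32 ± 0.17 and 1.87 ± 0.49. Nat8, an acetyltransferase, fell from 27.3 and 28.001 to 12.1 and 16.3 CPM (log2 difference -0.96 ± 0.15, edgeR adjusted p = 0.0110). Several large differences were not called. Socs2, a brake on growth hormone signals, had 41.96 and 9.97 CPM on chow, over 4-fold apart, and 1.56 and 0.820 on HFD (edgeR adjusted p = 0.0912). Lepr, the leptin receptor, had 1.39 and 0.986 CPM on chow and 2.71 and 5.58 on HFD (edgeR adjusted p = 0.0581), and the insulin receptor Insr 144 and 148 and 135 and 126 CPM (edgeR adjusted p = 0.335). Pdk4 and Igfbp1, genes of fasting, had log2 differences of -0.63 ± 0.31 and -0.56 ± 0.39, Pparg, a driver of fat storage, of 0.39 ± 0.16, and Vldlr, a lipoprotein receptor, of 1.58 ± 0.43, none called. Nat8 (without 1 or 2), Anxa2 and Gpc1 (without 1, 2 or 5) and S100a10 (without 1, 2, 5 or 6) lost their calls when 1 library was left out (edgeR adjusted p up to 0.245). The 13 rises of the panel were 1, 1 and 7 without libraries 1, 2 and 5 in turn, and the 8 falls 1, 2, 4 and 2 without libraries 1, 2, 5 and 6 in turn.

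Called genes that neighbour each other were looked for along the chromosomes of build GRCm38.p6, which served for order only. Of 12490 pairs of consecutive tested rows 52 were both called in 1 direction (22 higher, 30 lower) and 11 in opposite directions. Runs of 3 or more called rows of 1 direction numbered 7. They held the Acsm genes named above, glutathione transferases of the alpha class on chromosome 9 (Gsta4, Gsta1, Gm3776, Gm10639 and Gsta2, lower), UDP-glucuronosyltransferases on chromosome 5, Cyp2c genes on chromosome 19 and the Scd genes on the same chromosome (higher). These are clusters of similar copies, between which reads may be shared. The other 2 runs each join a pair of related genes with an unrelated one, namely Pnpla5, Pnpla3 and Samm50 on chromosome 15 (higher) and Kin, Itih2 and Itih5 on chromosome 2 (lower). Samm50, a protein of the outer mitochondrial membrane, stood at 63.003 and 63.2 CPM on chow and 91.1 and 80.3 on HFD (log2 difference 0.44 ± 0.09, edgeR adjusted p = 0.0272), and Itih2, a protein of the hyaluronan matrix, at 999.7 and 882 CPM and 658 and 705 CPM (log2 difference -0.47 ± 0.09, edgeR adjusted p = 0.0293). Pnpla3 gained far more than its neighbour Samm50, from 0.315 and 0.812 to 46.3 and 18.2 CPM. The kit is not stated to keep the strand of RNA, so reads of overlapping neighbours cannot be told apart. Samm50, Itih2 and Itih5 (without 1, 2, 5 or 6) lost their calls when 1 library was left out (edgeR adjusted p up to 0.275).

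The 4 het-labelled libraries, which are not in the wild-type contrast, were set beside it. They entered the same fit and shaped its filter and its estimate of the spread. The wild-type calls were therefore not made independently of them. On HFD 292 of the 299 genes that were higher in wild-type livers were higher in het-labelled livers too, and 270 of the 279 lower genes were lower. In 262 of the 299 (87.6%) both het-labelled HFD libraries lay above both chow libraries, against 22.3% of all tested rows, and in 240 of the 279 (86%) below, against 22.4% of all. Called in het-labelled livers were 111 and 101 of them, while 3.02% of all tested rows were called there in either direction. The median log2 difference of the higher genes was 0.86 in wild-type and 0.56 in het-labelled livers, and that of the lower genes -0.87 and -0.57, for genes chosen by their call in wild-type livers. The size of the diet difference was called unlike between the genotypes in 0 of 12593 rows, or 0% (edgeR interaction test, smallest adjusted p = 0.0963). Its unadjusted p was under 0.05 in 900 rows, and DESeq2 called 29. Without 1 library the interaction had 1 call (library 6), 2 (library 3 or 4) or 14 (library 7), and 0 without the others. Slc39a4 was 1 of the 2 genes nearest to a call. In het-labelled livers it had 36.1 and 28.8 CPM on chow and 2.52 and 1.99 on HFD, a log2 difference of -3.82 ± 0.17. Cyp7a1, lower on HFD in wild-type livers, had 63.6 and 56.7 CPM on chow and 112 and 71.7 on HFD in het-labelled livers, so the means lay in opposite order, and the interaction was not called (edgeR adjusted p = 0.367). Nnt rose in wild-type livers and had a log2 difference of 0.14 ± 0.08 in het-labelled livers (interaction edgeR adjusted p = 0.388). Axin2 and Ppp1r3g, called in wild-type livers, had het-labelled log2 differences of 0.17 ± 0.16 and 0.16 ± 0.43. Among the groups, the median of fatty acid oxidation was 0.23 in wild-type and 0.07 in het-labelled livers, that of the acute phase genes -0.32 and -0.36, that of the chaperones 0.29 and 0.15, and that of the periportal genes -0.41 and -0.20. Differences between these medians were not tested. Ppp1r3g (without 1 or 2) and Cyp7a1 and Axin2 (without 1, 2, 5 or 6) lost their wild-type calls when 1 library was left out (edgeR adjusted p up to 0.195).

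**Figure D5:**
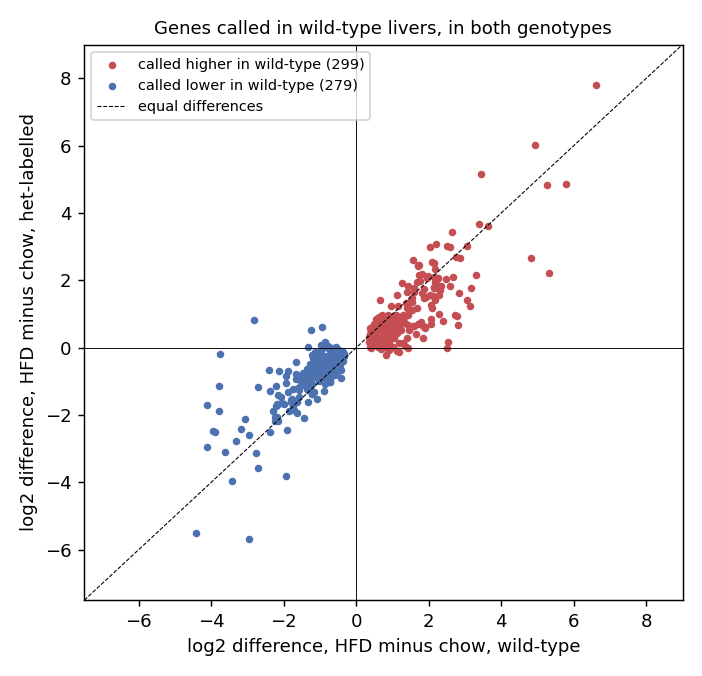
Each point is a gene called between HFD and chow in wild-type livers, placed by its log2 difference in wild-type (horizontal) and in het-labelled livers (vertical), with a dashed line of equal differences. Most points lie in the quadrants of the same direction, 292 of 299 for higher and 270 of 279 for lower genes.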

How the data were processed

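Total RNA from liver was sequenced as TruSeq libraries. The build mm9 and the programs TopHat2, HTSeq, DESeq and CASAVA are named, per the submitters' processing notes, while settings, versions and strand mode are not given in the sources used here. The values deposited by the authors are raw counts of reads per gene in 1 table of 22946 rows, of which 5826 held 0 counts in every library and 374 join several symbols. Libraries were grouped by their labels, with 2 in each of 4 groups.

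From these counts edgeR 4.0.16 (R 4.3.3) was run with filterByExpr (12593 rows kept), TMM scaling and quasi-likelihood tests of 4 group means over all 8 libraries, which share 1 estimate of the spread (4 residual degrees of freedom). A call is a Benjamini-Hochberg adjusted p under 0.05 over all rows tested. Log2 differences are HFD minus chow, and the value after ± is a standard error worked back from the test's F statistic. Rises and falls of 2-fold and 4-fold placed in simulated counts of the wild-type comparison were recovered in 77% and 97% of cases. There were 15 false calls among 12593 genes. That count is set against all genes, and the share of false calls among the calls made was not tested. Genes were named by a rule: the 15 largest rises and falls, the 10 largest gains and losses of level, up to 4 called members per group and a panel of 61 genes. Members, groups and this rule were chosen with earlier results of these data known, and other genes named were chosen after their values were seen. Symbols and neighbours came from RefSeq annotation and promoters from RefSeq windows, both of GRCm38.p6. Its coordinates are not those of the counting. DESeq2 1.42.0, other scalings and filters, and fits without each library were the alternatives. Some genes that the rule names are not reported here.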

Additional observations from a re-analysis of the deposited data

How the results depend on the processing

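With RLE or upper quartile scaling, with a minimum mean of 1 CPM, without the row that joins the Mup genes and with DESeq2, the counts of called rows in wild-type livers stayed within 1.5 times of the 299 higher and 279 lower. With no filter on low counts 437 rows were lower, and with only the 4 wild-type libraries in the fit 617 were higher and 734 lower. Leaving out 1 library gave between 35 and 448 higher rows and between 63 and 486 lower rows, with the highest counts when a het-labelled chow library was absent. In het-labelled livers 193 rows were higher and 187 lower. With no filter these were 334 and 346, DESeq2 called 299 higher, and leaving out 1 library gave 82 to 172 higher and 62 to 159 lower. The interaction had 0 calls, 8 with no filter, 29 with DESeq2 (4883 rows had no adjusted p there) and 0 to 14 when 1 library was left out. None of the called genes named changed sign. Of named genes that were not called, these did when a library was left out, with log2 differences of Cyp4a14 (-0.46 without 5, 0.015 without 1), Elovl3 (-0.55 without 6, 0.039 without 5), Glul (-0.27 without 5, 0.11 without 6), Mll2 (-0.15 without 1, 0.063 without 2), Nr1d1 (-0.051 without 5, 0.75 without 6), Rps27l (-0.085 without 1, 0.029 without 2), Saa2 (-0.85 without 5, 0.48 without 6) and Xbp1 (-0.14 without 2, 0.058 without 1). The cause of these differences was not tested. In simulated counts 77% of changes of 2-fold were called, so smaller changes can be missed with 2 libraries per group at this depth. No paired analysis was possible because no library number occurs in more than 1 group.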

Other observations

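Many called genes lay outside every group examined. Of these 324 rows 185 were higher and 139 lower on HFD in wild-type livers. The 3 groups below were written down after these values were seen, from all family members known by name, and get counts and no test. Their calls are read against 2.37% higher and 2.22% lower of all tested rows.

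Genes of transport between the endoplasmic reticulum and the Golgi were higher. Of 69 tested members 10 rose and 0 fell, and the median log2 difference was 0.24. In 53 both HFD libraries lay above both chow libraries, against 30.6% of all tested rows. Sec22b, a vesicle fusion protein, stood at 41.1 and 40.001 CPM on chow and 63.4 and 60.9 on HFD (log2 difference 0.62 ± 0.10, edgeR adjusted p = 0.0127), and Arf4, a GTPase of the Golgi, at 94.9 and 93.5 CPM and 137 and 128 CPM (log2 difference 0.49 ± 0.08, edgeR adjusted p = 0.0147). The others were Bet1l, Tfg, Scfd1, Tmed3, Gorasp1, Srp54a, Lman1 and Yipf5. In het-labelled livers the median of this group was 0.15. It moved the same way as the endoplasmic reticulum chaperones. Enzymes of sugar nucleotides and galactose gave 5 rises and 1 fall among 27 tested. Pgm3, which makes a precursor of UDP-N-acetylglucosamine, stood at 13.8 and 11.7 CPM on chow and 35.03 and 29.9 on HFD (log2 difference 1.35 ± 0.13, edgeR adjusted p = 0.00159). Ugp2, Gmppb and Galk1 also rose, and Ugdh, which makes the donor of glucuronic acid for conjugation, fell from 197 and 229 to 133 and 123 CPM.

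Of 35 tested genes of cell junctions 6 fell and 1 rose. Besides Cdh1 the falls were the desmosomal Dsg2 and Dsp, the tight junction genes Ocln and Marveld2, and the hepatocyte connexin Gjb1. Gjb1 stood at 654 and 622 CPM on chow and 492 and 472 on HFD (log2 difference -0.40 ± 0.09, edgeR adjusted p = 0.0463). The rise was Tjp3, and the median of the group was -0.02. Both HFD libraries lay below both chow libraries in 15 of the 35 and above them in 6, against 25.2% and 30.6% of all tested rows. Both enzymes of the glycerol phosphate shuttle rose. Gpd1 stood at 369.9 and 375 CPM on chow and 739.7 and 736 on HFD (log2 difference 0.99 ± 0.13, edgeR adjusted p = 0.00639) and Gpd2 at 30.1 and 31.1 CPM and 70.5 and 77.9 CPM (log2 difference 1.28 ± 0.15, edgeR adjusted p = 0.00374). The pacemaker channel gene Hcn3 stood at 4.16 and 4.52 CPM on chow and 25.8 and 28.8 on HFD (log2 difference 2.65 ± 0.16, edgeR adjusted p = 0.000170), and had 1.98 and 2.72 CPM on chow and 23.2 and 28.6 on HFD in het-labelled livers. Gpd2 (without 1), Gpd1 (without 1 or 2), Gjb1 (without 1, 2, 5, 6, 7 or 8), Ugp2 (without 1, 2 or 6) and Ugdh (without 6) lost their calls when 1 library was left out. Sec22b, Arf4, Bet1l, Galk1, Dsg2 and Dsp lost theirs without 1, 2, 5 or 6.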
